A study of Tupaia belangeri with 6 samples.

Results

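Acetylcholine acts in the cortex through muscarinic receptors, which couple to G proteins, and nicotinic receptors, which are ion channels built from 5 subunits. The 9 genes examined were the muscarinic receptors CHRM1 to CHRM5, the nicotinic subunits CHRNA4, CHRNA7 and CHRNB2, and ACHE, the enzyme acetylcholinesterase. Their rows were found by gene symbol, and copies whose symbol carries the suffix "li" were not counted. Of these 9 symbols, 6 were found among the 95863 gene IDs of the abundance tables, each as 1 locus, namely 4 of the 5 muscarinic receptors and 2 of the 3 nicotinic subunits. No row was found for CHRM4, CHRNA7 or ACHE, so these 3 genes have no value.

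The libraries came from prefrontal cortex (PFC) tissue of 6 adult Chinese tree shrews (Tupaia belangeri), namely females 1, 3 and 4 and males 1, 4 and 5, with 1 polyA-enriched library per animal. No treatment separated the animals, and each was anaesthetised with isoflurane and then given ketamine and pentobarbital before dissection. The study's sample overview lists every male at a greater age than every female, so sex and age cannot be told apart. Expression is given as TPM, the abundance per transcript length scaled to the library, so levels of different genes can be set side by side within an animal on that scale, and an order of genes in TPM need not hold for the read depth over their loci.

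CHRM1, CHRM3 and CHRM5 couple to Gq proteins and phospholipase C, whereas CHRM2 and CHRM4 couple to Gi proteins. CHRM1 is the muscarinic receptor best known from cortical pyramidal neurons. CHRNA4 and CHRNB2 together form the high-affinity nicotinic receptor of the brain, and CHRNA7 forms a receptor of its own. Cortical acetylcholine is released largely from axons whose cell bodies lie in the basal forebrain, where the synthesis gene CHAT is transcribed. ACHE ends the signal by breaking acetylcholine down.

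The tissue label was checked against marker genes. The excitatory neuron gene SLC17A7 lay between 783 and 1569 TPM in the 6 libraries, and all 5 excitatory neuron markers listed were above 0 in every animal. Of 6 striatal projection neuron markers with a row, 4 were highest in females 1 and 3 and male 1. RGS9, for 1, was at 43.7 to 54.6 TPM there and at most at 1.52 TPM in the other animals, as described below. A level above 0 is a weak check, since many loci met it. Loci above 0 TPM numbered 30342 to 33114 per library, and loci without an assigned strand took 2.30% to 7.88% of the TPM. These shares were highest in male 5 (7.88%) and male 1 (5.16%). TPM keeps no sequencing depth, so no counting interval was computed, and for the 6 members the deposited coverage, the mean read depth over a locus, is given instead. Summed blood and oligodendrocyte markers were higher in the females. The 3 blood genes with a row summed to 1275 to 2542 TPM in the females and 62.7 to 101 TPM in the males, and the oligodendrocyte genes MOG, MBP and MAG summed to 348 to 482 TPM and 80.7 to 236 TPM. Most of the latter sum in the females was MAG (247 to 346 TPM), which alone of the 3 was separated. MOG and MBP overlapped between the sexes, and the MBP row spans only 893 bp, at 7.07 to 13.7 TPM. In the limma comparison described below, MAG and MOG had unadjusted p-values of 0.00038 and 0.025 toward females. Its adjusted threshold was passed by 0 of these 3 genes. It was passed by 2 of the 3 blood genes, HBQ1 and HBG (each toward females, limma adjusted p 0.0098). They were among the 4 autosomal genes called in all.

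CHRM1 was the most abundant of the muscarinic receptors measured. It is annotated on the plus strand of chromosome 17, from 56043665 to 56063041 of the tree shrew genome TS_3.0. Its level was 116, 122 and 100.5 TPM in females 1, 3 and 4 and 98.5, 133 and 126 TPM in males 1, 4 and 5, a mean of 116 ± 13.9 TPM (SD, n = 6). Male 1 and female 4 were lowest and male 4 was highest, and the sexes overlapped. The highest animal had 1.35 times the level of the lowest. Of the autosomal genes tested, 94.8% had a lower mean than CHRM1, and the mean read depth over the locus was 126 to 145 in the 6 libraries.

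CHRM3 was the next muscarinic receptor. It spans 320940 bp on the minus strand of chromosome 16 (69291606 to 69612545). Females 1, 3 and 4 had 21.5, 23.2 and 13.9 TPM, and males 1, 4 and 5 had 16.0, 25.3 and 24.0 TPM (mean 20.7 ± 4.64 TPM, SD, n = 6). Female 4 and male 1 were the lowest animals, as they were for CHRM1, and the sexes overlapped. The coverage of CHRM3 was 20.7 to 29.2. The level of CHRM1 was 5.24 to 7.25 times that of CHRM3 within an animal.

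CHRM2 and CHRM5 were near the lower end of detection. CHRM2 (chromosome 5, minus strand, 49308662 to 49372170) was at 0.797, 4.91 and 0.502 TPM in females 1, 3 and 4, listed at 0 in male 1, and at 0.769 and 1.48 TPM in males 4 and 5. Female 3 stood above the other 5 animals, which reached at most 1.48 TPM. The coverage of CHRM2 was 6.22 in female 3 and at most 1.84 elsewhere. There are 2 short loci without a strand inside the CHRM2 span, and each reached its highest level in female 4, at 4.60 and 3.90 TPM. The locus CHRM5 (chromosome 4, plus strand, 106097626 to 106099314, 1689 bp) was at 0.981 and 0.554 TPM in females 1 and 3 and at 1.22 and 1.21 TPM in males 1 and 4. It was listed at 0 in female 4 and male 5, and its coverage was at most 1.66. The CHRM5 locus lies within the span of AVEN, a gene on the opposite strand with 49.2 to 78.9 TPM. No strand-specific library protocol is named, so reads from CHRM5 and from AVEN transcripts cannot be told apart by strand.

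**Figure D1:**
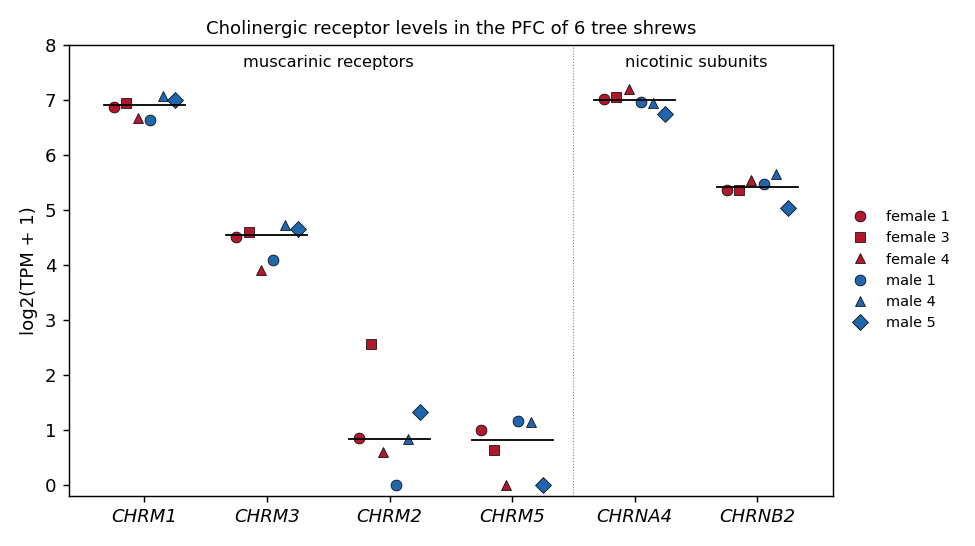
Levels of the 6 measured cholinergic receptor genes in each animal, as log2(TPM + 1) on the vertical axis. Symbols stand for the animals, red for females and blue for males, and lines mark the median of the 6 animals. CHRM1 and CHRNA4 lie highest and overlap, CHRNB2 and CHRM3 follow in separate ranges of TPM, and CHRM2 and CHRM5 overlap near 0, with CHRM2 of female 3 at 4.91 TPM above the rest.

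CHRNA4 was the most abundant nicotinic subunit measured and had the highest mean TPM of all 6 genes. It lies on the plus strand of chromosome 9, from 49159779 to 49170139. Its level was 128, 132 and 146 TPM in females 1, 3 and 4 and 124, 122 and 106 TPM in males 1, 4 and 5 (mean 126 ± 13.0 TPM, SD, n = 6). Female 4 was highest and male 5 lowest, and every female lay above every male by a margin of 128 against 124 TPM between the nearest animals. The mean of CHRNA4 exceeded that of 95.2% of the autosomal genes tested, and its coverage was 103 to 175.

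CHRNB2, the partner subunit of CHRNA4, is annotated on the minus strand of chromosome 7 (75884978 to 75950531). Females 1, 3 and 4 had 39.8, 40.2 and 45.6 TPM, and males 1, 4 and 5 had 43.1, 49.3 and 31.5 TPM (mean 41.6 ± 6.09 TPM, SD, n = 6). Males 4 and 5 were the extremes, with all females between them. The locus overlaps ADAR, a gene on the opposite strand with 23.4 to 56.7 TPM, and reads in the shared stretch cannot be assigned by strand. CHRNA4 exceeded CHRNB2 in 6 of 6 animals, by a factor of 3.22, 3.28 and 3.19 in females 1, 3 and 4 and of 2.87, 2.47 and 3.36 in males 1, 4 and 5. The females had a mean ratio of 3.23 ± 0.0447 (SD, n = 3), and the males one of 2.90 ± 0.446 (SD, n = 3), with male 5 above every female. By the deposited coverage, which was 20.3 to 33.2 for CHRNB2, the factor was larger, at 6.38, 5.86 and 6.39 for females 1, 3 and 4 and 4.87, 3.44 and 5.08 for males 1, 4 and 5. The size of this ratio and the place of male 5 thus depend on the measure, whereas CHRNA4 was above CHRNB2 by both.

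In the order of the levels, CHRNA4 and CHRM1 did not differ beyond their spread. CHRNA4 was the higher in 4 of 6 animals, and the mean difference in log2(TPM + 1) of 0.12 was smaller than its SD of 0.29 (n = 6). Males 4 and 5 were the exceptions, with more CHRM1 than CHRNA4. CHRM1 exceeded CHRNB2 in 6 of 6 animals (log2 difference 1.46 ± 0.31, SD, n = 6). CHRNB2 exceeded CHRM3 in 6 of 6 animals as well (0.99 ± 0.45, SD, n = 6). In TPM, the ranges of these neighbours did not overlap. By coverage, CHRM1 exceeded CHRNB2 in 6 of 6 animals but CHRNB2 exceeded CHRM3 in 3 of 6, so the order of CHRNB2 and CHRM3 depends on the measure. CHRNA4 was above CHRM1 in 2 of 6 animals by coverage. CHRM3 lay above CHRM2 in every animal (log2 difference 3.38 ± 0.73, SD, n = 6). CHRM2 and CHRM5 could not be ordered, since CHRM2 was higher in 3 of 6 animals.

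CHRM1 made up most of the muscarinic TPM measured. Females 1, 3 and 4 had a CHRM1 share of 83.3%, 81.0% and 87.5% among the 4 receptors, and males 1, 4 and 5 one of 85.1%, 82.9% and 83.2%. CHRM4 is not part of this sum. The summed muscarinic level was 139 ± 19.3 TPM (SD, n = 6), and the sum of CHRNA4 and CHRNB2 was 168 ± 17.3 TPM (SD, n = 6), without CHRNA7. The nicotinic sum divided by the muscarinic sum stood at 1.20 for female 1, 1.14 for female 3 and 1.66 for female 4, and at 1.44 for male 1, 1.07 for male 4 and 0.905 for male 5. Female 4 was highest and male 5 lowest, and the sexes overlapped. By coverage this ratio averaged 0.952 ± 0.183 (SD, n = 6), against 1.24 ± 0.273 (SD, n = 6) in TPM, so which class was the larger depends on the measure.

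**Figure D2:**
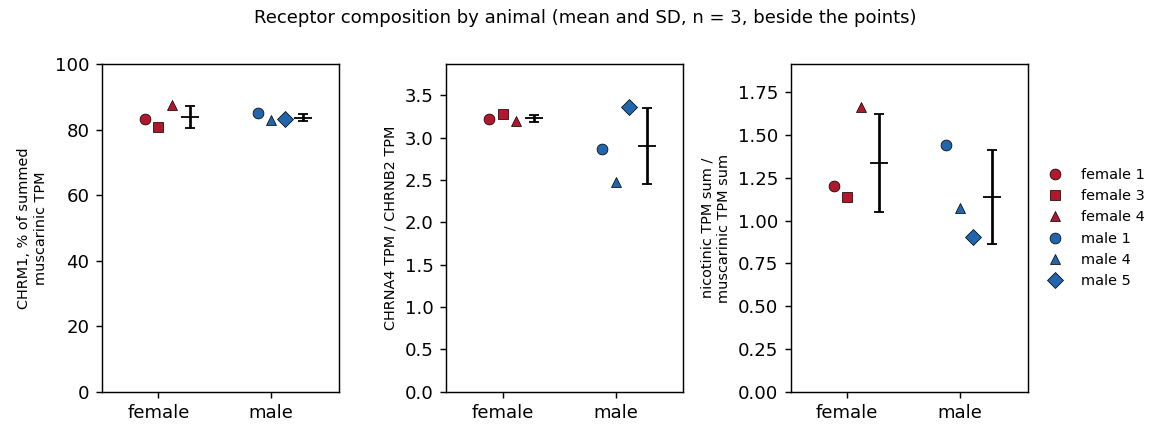
Share of CHRM1 in the summed muscarinic TPM, ratio of CHRNA4 to CHRNB2, and ratio of the nicotinic to the muscarinic sum, for each animal by sex. Bars beside the points give the mean and SD (n = 3), and each vertical axis starts at 0. The CHRM1 share stays between 81.0% and 87.5%, the subunit ratio between 2.47 and 3.36, and the ratio of the sums between 0.905 and 1.66.

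The abundant receptors varied little among animals. The SD of log2(TPM + 1) over the 6 animals was 0.15 for CHRNA4, 0.18 for CHRM1, 0.22 for CHRNB2 and 0.33 for CHRM3. The weak genes were more variable, with 0.87 for CHRM2 and 0.54 for CHRM5. The median of the 6 members was 0.28, and that of the 27996 autosomal genes tested was 0.48. The genes tested include weak ones, from 0.1 TPM in at least 3 animals, so this comparison does not match genes by level. The 3 strongest muscarinic signalling genes, described below, had 0.15 (GRK2), 0.89 (RGS4) and 0.18 (GNAO1). A small spread is therefore not particular to the receptors. As a coefficient of variation of TPM, the spread was 10.3% for CHRNA4, 11.99% for CHRM1, 14.6% for CHRNB2 and 22.4% for CHRM3.

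To ask whether the receptors differed between the sexes, log2(TPM + 1) was fitted with limma on every gene that reached 0.1 TPM in at least 3 animals, and p-values were adjusted by Benjamini-Hochberg over the autosomes. All 6 measured members are autosomal and entered the test. None of them passed the adjusted threshold of 0.1 (0 of 6), where 0.0143% of all autosomal genes tested did. At an unadjusted p under 0.05 the members also numbered 0 of 6, against 5.04% of the autosomal genes (2.42% higher in females, 2.62% higher in males). The 3 females and the 3 males were fully separated for 1 of 6 members, against 9.81% of the autosomal genes (4.84% toward females, 4.97% toward males). The direction was female for 3 members and male for 3, with a median log2 difference of −0.015, beside −0.031 over all autosomal genes tested.

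The separated member was CHRNA4, for which the females averaged 135 ± 9.28 TPM (SD, n = 3) and the males 117 ± 9.78 TPM (SD, n = 3). Female minus male, this was 0.20 on the log2 scale with a standard error of 0.16, and limma gave an adjusted p of 0.925. An exact two-sided permutation test of the 6 animals gave p = 0.1, the smallest value that 3 animals against 3 allow. The separation was lost when TPM was rescaled to the loci with a strand, where female 1 had 125 TPM and male 1 had 127 TPM. It was also lost after median-ratio scaling and with FPKM, although the mean difference stayed toward females. The blood and oligodendrocyte sums given above also separated the sexes in the direction of females. So did the neuron gene TUBB3 (802 to 908 TPM in the females against 463 to 762 TPM) and the endothelial genes CLDN5 (33.5 to 60.7 against 23.2 to 28.9 TPM) and FLT1 (27.1 to 31.7 against 23.2 to 26.8 TPM), whereas the excitatory neuron gene NEUROD6 was separated toward males (89.9 to 107.5 against 110.2 to 145 TPM). Other members of these lists were not separated. Their log2 differences were −0.20 for PECAM1 and 0.37 for VWF (endothelium), and 1.64 for MOG and 0.27 for MBP (oligodendrocytes). They were 0.093 for SNAP25, −0.076 for SYT1 and −0.057 for STMN2 (neurons). For excitatory neurons they were 0.11 for SLC17A7, 0.33 for CUX2, 0.093 for TBR1 and 0.62 for FEZF2. The PECAM1 row spans 356026 bp, with 252 to 410 TPM at a coverage of only 21.8 to 31.2. Of the markers tested, 3 of 3 for blood, 1 of 3 for oligodendrocytes, 2 of 4 for endothelium, 1 of 4 for neurons and 1 of 5 for excitatory neurons were separated, and 0 of 6 for inhibitory neurons, 0 of 4 for astrocytes, 0 of 4 for microglia and 0 of 3 for choroid plexus, where 9.81% of all autosomal genes were. The part of these genes in the CHRNA4 value was not tested. In bulk tissue, fewer cells of a type and less RNA per cell cannot be told apart.

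For CHRM1 the females had 113 ± 11.2 TPM (SD, n = 3) and the males 119 ± 18.2 TPM (SD, n = 3), or −0.070 on the log2 scale with a standard error of 0.18, and the adjusted p from limma was 0.979. CHRM3 differed by −0.16 (standard error 0.28) and CHRNB2 by 0.039 (standard error 0.21). The low receptors had wider errors, with 0.62 (standard error 0.64) for CHRM2 and −0.22 (standard error 0.46) for CHRM5. The CHRM2 difference rested on female 3, since without this animal it was 0.0044 and the mean level fell from 1.41 to 0.711 TPM. The adjusted p-values of these 4 genes by limma lay between 0.939 and 0.991, and the exact permutation p-values of the 5 members other than CHRNA4 between 0.5 and 0.9. Each of these differences was smaller than its standard error, as the plot of sex differences shows.

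**Figure D3:**
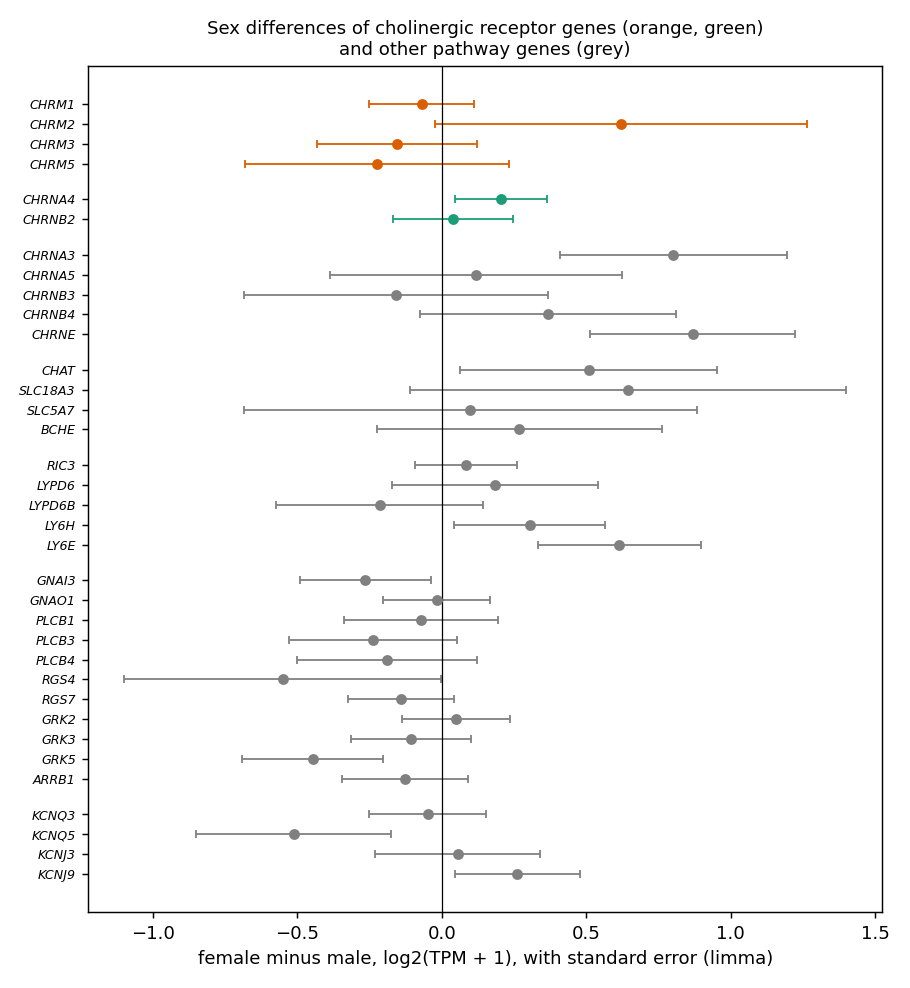
Female minus male difference in log2(TPM + 1) with its standard error from limma, for the muscarinic members (orange), the nicotinic members (green) and the other pathway genes tested (grey). CHRNA4 lies at 0.20 and CHRNE at 0.87. No gene shown passed the adjusted threshold of 0.1.

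Other genes of the pathway were taken from 5 lists of receptor subunits, transmitter enzymes and transporters, receptor modulators, signalling proteins and target channels. Of 51 genes, 38 had a row and 29 were tested. By limma, 0 of 29 passed the adjusted threshold, an unadjusted p under 0.05 was reached by 1 gene toward females and by 0 toward males, and 1 was separated, toward females. These counts are not above the shares of 5.04% and 9.81% over all autosomal genes. Their median log2 difference was 0.049, beside −0.031 over all autosomal genes.

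Among the other nicotinic subunits, 9 of 13 had a row and 5 were tested. CHRNE, known as the epsilon subunit of adult muscle receptors, was the most abundant of them, at 14.8, 28.9 and 29.0 TPM in females 1, 3 and 4 and 7.95, 16.7 and 13.6 TPM in males 1, 4 and 5. By limma it differed by 0.87 ± 0.35 (standard error) on the log2 scale, with an adjusted p = 0.925 (unadjusted p = 0.0382, exact permutation p = 0.2), and male 4 lay above female 1. The CHRNE span overlaps C17ORF107 and MINK1 on the opposite strand, and MINK1 was at 121 to 285 TPM. CHRNA3, a subunit of autonomic ganglia and the habenula, was at 6.68, 6.35 and 6.10 TPM in females 1, 3 and 4 and at 3.59, 4.14 and 2.21 TPM in males 1, 4 and 5. The sexes did not overlap for CHRNA3, under each of the 3 other scalings either, and limma put the difference at 0.80 ± 0.39 (standard error) on the log2 scale, with an adjusted p of 0.925. Its locus overlaps that of CHRNA5 on the opposite strand.

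CHRNA5, an accessory subunit of the receptor formed by CHRNA4 and CHRNB2, ranged from 0 in female 4 to 2.37 TPM in female 1. CHRNB3 ranged from 0.348 to 2.30 TPM and CHRNB4 from 0.243 to 2.04 TPM. CHRNA2 reached at most 0.467 TPM, CHRNA1 0.114 TPM, CHRNA9 0.0123 TPM and CHRNG 0.670 TPM, and each of these 4 was listed at 0 in 3 or more animals. Next to CHRNA4, at 106 TPM or more in every animal, these subunits were therefore all weak, and CHRNE stood between them and CHRNB2. No row was found for CHRNA6, CHRNA10, CHRNB1 or CHRND.

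The genes that make and load acetylcholine were weak, at a few TPM in some animals of each sex and at or near 0 in the others. CHAT, the synthesis enzyme, was at 1.29 and 1.28 TPM in females 1 and 3 and at 0.817 TPM in male 1, and it was listed at 0 in female 4, male 4 and male 5. SLC18A3, the vesicular transporter, was at 2.56, 3.26 and 2.96 TPM in the same 3 animals and at 0 in the other 3. SLC5A7, the choline transporter of cholinergic terminals, was at 1.93, 2.004 and 5.51 TPM in females 1 and 3 and male 1 and at 0.119, 0.136 and 0.0838 TPM in female 4, male 4 and male 5. The sexes thus overlapped for each of these genes, and the unadjusted p-values by limma were 0.283, 0.415 and 0.902.

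Of 13 measured markers of cholinergic and striatal neurons, these 3 genes included, 9 were highest in the same 3 animals, an order that 6.59% of all autosomal genes tested had. The single marker genes given here were chosen after their values were seen. The animals were picked by their CHAT level, so the cholinergic genes are no independent count. Of 7 genes listed for basal forebrain cholinergic neurons, which include these 3 genes, 5 had their 3 highest values in females 1 and 3 and male 1. LHX8, a transcription factor of these neurons, was at 0.800, 1.46 and 1.95 TPM there and at most at 0.167 TPM in the other animals, with a coverage of at most 0.226. ISL1, another such factor, was listed at 0 in female 4, male 4 and male 5. Of 9 striatal projection neuron genes, 6 had a row, and RGS9, PDE10A, PENK and TAC1 had the same 3 highest animals. RGS9 was at 48.0, 43.7 and 54.6 TPM in females 1 and 3 and male 1 and at 1.52, 0.355 and 0.392 TPM in female 4, male 4 and male 5. No row was found for the striatal genes DRD2, PPP1R1B and ADORA2A. The exceptions were NGFR, which was highest in male 4 at 1.98 TPM, GBX1, which was listed at 0 in 5 animals, DRD1, which was higher in male 4 (4.83 TPM) than in male 1 (4.02 TPM), and RARB, which was higher in male 5 (2.44 TPM) than in female 1 (2.37 TPM). Of the cholinergic receptor members, 0 of 6 had this order, a number too small to set against the share of all genes. CHRM1 was lowest in male 1, which is among the 3 animals, and CHRNA4 was highest in female 4, which is not. The same 3 animals were also highest for TMEM35A, STMN2 and MOG, which are on neither list. The part of subcortical tissue in these libraries was not tested.

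**Figure D4:**
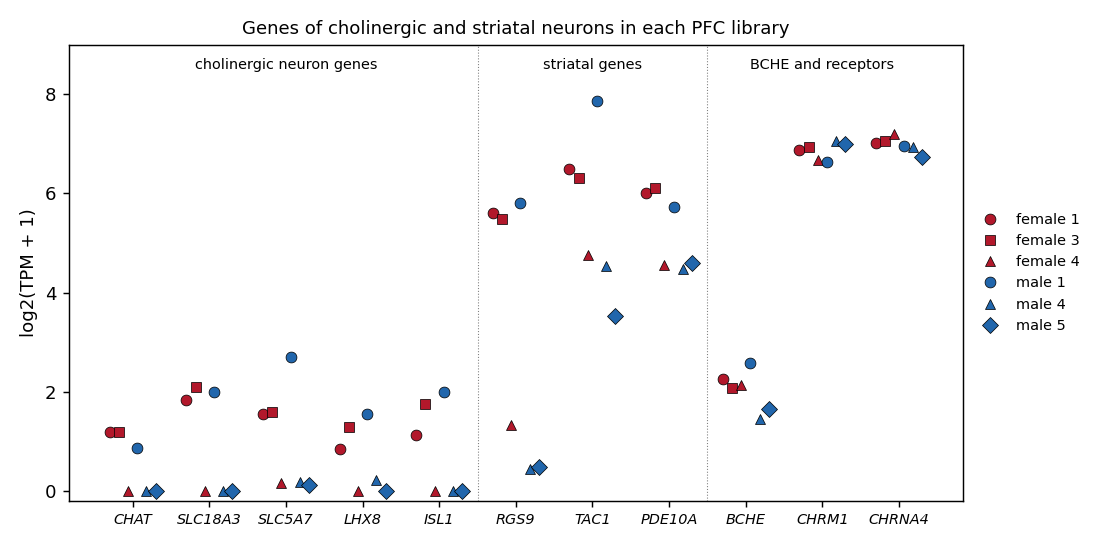
Genes of cholinergic neurons, striatal genes, BCHE and the receptors CHRM1 and CHRNA4 in each library, as log2(TPM + 1). Symbols stand for the animals, red for females and blue for males. Females 1 and 3 and male 1 lie above the other 3 animals for the cholinergic and striatal genes shown, as for RGS9 at 43.7 to 54.6 against at most 1.52 TPM, but not for BCHE, CHRM1 or CHRNA4.

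BCHE, the second cholinesterase, was at 3.80, 3.22 and 3.42 TPM in females 1, 3 and 4 and at 4.96, 1.72 and 2.15 TPM in males 1, 4 and 5. Male 1 was highest and male 4 lowest, so the males enclosed the females. No row was found for PRIMA1 or COLQ, which anchor cholinesterase.

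Of 10 genes that assist or modulate nicotinic receptors, 7 had a row, and their levels ranged widely. LYPD6 and LYPD6B were lowest, at 4.29 to 9.12 TPM and 4.80 to 8.34 TPM, and the coverage of LYPD6B was only 0.295 to 0.589. RIC3, a chaperone of CHRNA7 receptors, was at 30.5 to 38.5 TPM in the 6 animals. LY6H and LY6E, small proteins that bind nicotinic receptors, were at 249.7 to 480.1 TPM and 179 to 479 TPM, both highest in female 4. LYNX1, a relative of snake toxins that dampens nicotinic receptors, was at 144 to 189 TPM. LYNX1 and the chaperone TMEM35A (67.5 to 127 TPM) lie on unplaced contigs and were not in the sex comparison. Of 5 genes of this list tested, 0 had an unadjusted limma p under 0.05 and 0 passed the adjusted threshold.

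Downstream of the muscarinic receptors, 14 of 16 signalling genes had a row and 11 were tested, with 0 at an unadjusted limma p under 0.05 and 0 past the adjusted threshold. GRK2, a kinase that desensitises receptors, was most abundant, at 286 to 393 TPM. RGS4, which shortens Gq and Gi signals, was the most variable of the 3 strongest genes, from 91.2 TPM in female 4 to 457 TPM in male 5. Its locus overlaps an unnamed locus on the opposite strand at 511 to 755 TPM. GNAO1, a Gi-class subunit of neurons, was at 153 to 207 TPM. Rows named GNAQ and GNAI1, singled out after their values were seen, were listed at 0 in all 6 animals. The GNAQ row spans only 1152 bp. The GNAI1 row spans 13267 bp and overlaps loci named FV4 and POLli61 on the same strand. Whether these rows hold the whole genes was not tested, so the zeros do not show that the genes are silent. GNA11, a Gq-class subunit, was at 84.4 to 161 TPM.

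The channels that muscarinic signals close or open were present in every animal for the 4 of 6 genes with a row. KCNJ3 and KCNJ9, inward rectifiers opened through Gi, were at 48.5 to 89.3 TPM and 42.2 to 70.5 TPM. The KCNJ9 locus overlaps IGSF8, a gene on the opposite strand at 69.9 to 140 TPM, and reads in the shared stretch cannot be assigned by strand. KCNQ5, a channel of the M-current that muscarinic receptors suppress, was at 20.05 to 66.6 TPM, with a coverage of only 0.642 to 1.35. None of the 4 channels tested had an unadjusted limma p under 0.05 (0 of 4) or passed the adjusted threshold.

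The named genes whose pattern across the 6 animals was most like that of a receptor were found by Pearson r of log2(TPM + 1) among 9295 genes with a mean of at least 1 TPM. For CHRM1 these were NLGN4X (r = 0.998, n = 6), NAV2 (r = 0.990) and MSL1 (r = 0.989), and 71 genes had an r above 0.95. NLGN4X ranged from 27.3 TPM in male 1 to 45.7 TPM in male 4, the same lowest and highest animals as for CHRM1. For CHRNA4 they were EXOC7 (r = 0.992, n = 6), MARCHF2 (r = 0.987) and PRLR (r = 0.985), and 34 genes had an r above 0.95. The points are the same 6 libraries, so these values describe shared ups and downs of the libraries.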

How the data were processed

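Per the methods of the study, reads were aligned with HISAT2 2.2.1 to the TS_3.0 assembly, and transcripts were assembled per animal with StringTie 2.2.1 and merged under guidance of the reference annotation. The deposited tables hold TPM, FPKM and coverage (mean read depth over a locus, not scaled to the library) that the authors obtained with StringTie. Without read counts, the count test of the study was not run. Within each library, FPKM and TPM differ by 1 factor.

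Loci of 1 gene ID and reference were summed with Python 3.11.15 and pandas 2.3.3. Differences in log2(TPM + 1), as female minus male, were fitted over 28740 genes (0.1 TPM or more in at least 3 animals) with limma 3.58.1 (R 4.3.3), using the intensity trend and no other term. Autosomal and X-linked p-values were adjusted separately and called at 0.1. A segment of the X chromosome and one of chromosome 26 were left out, following the study. Fold changes on this scale understate those of weak genes. Exact permutation tests were two-sided. Pearson r between pairs of libraries was 0.859 to 0.957.

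The members, the lists and the rule for naming genes were chosen with earlier results of these data known. All members, other nicotinic subunits and synthesis, transport and breakdown genes were named, and of each other pathway list the 3 most abundant genes and those with an unadjusted p under 0.05. RIC3, TMEM35A, GNA11, LYPD6 and LYPD6B were named beyond this rule, after their values were seen. Some genes of the lists are not reported here and were taken out of the list counts after the results were known. Alternatives were other pseudocounts, filters, scalings, units and models, and each animal left out. RefSeq names of another assembly list all 9 symbols, and its coordinates were not used. No sequences were in the sources used here.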

Additional observations from a re-analysis of the deposited data

Results flagged for a closer look

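Among 42 receptor and pathway genes with values that varied, 6 had a single animal standing apart from the other 5 by Dixon's criterion for 6 samples. For normally distributed values chance gives about 1 in 20, but the same criterion picked out 20.4% of all autosomal genes tested, so 6 of 42 is no excess. CHRM2 was at 4.91 TPM in female 3 and at 0 to 1.48 TPM in the others. SLC5A7 was at 5.51 TPM in male 1 and at 0.0838 to 2.004 TPM in the others. LYPD6B, a modulator of nicotinic receptors, was at 8.34 TPM in male 1 and at 4.80 to 5.93 TPM elsewhere, with a coverage of at most 0.589. RGS7, a regulator of Gi signalling, was at 103 TPM in male 5 and at 71.0 to 81.8 TPM elsewhere. CHRNA9 (0.0123 TPM in female 3) and CHRNG (0.670 TPM in female 1) were listed at 0 in the other 5 animals, which meets the criterion whatever the value.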

How the results depend on the processing

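The number of members past the adjusted threshold was 0 in every limma fit, and 1 (CHRNA4) by complete separation of the sexes. Over autosomes and X together, limma called 5 genes, and 3 with FPKM, 1 without the trend, and 3 to 6 with each animal left out. At an unadjusted p under 0.05 there were 1439, and by complete separation 2818. The difference of CHRNA4 kept its sign in 17 alternatives, from 0.12 to 0.24. That of CHRM2 stayed above 0 in 16, up to 2.48 with a pseudocount of 0.01, but was 0.0044 without female 3. The other signs turned in some alternatives: CHRM1 without female 4 (0.012) or male 4 (0.012), CHRM3 (0.062) and CHRM5 (0.046) without female 4, and CHRNB2 with quantile normalization (−0.012), TPM over stranded loci (−0.016), and without female 4 (−0.023) or male 5 (−0.14). With each animal left out, these differences ran from −0.20 to 0.012 for CHRM1, 0.0044 to 0.99 for CHRM2, −0.35 to 0.062 for CHRM3, −0.61 to 0.046 for CHRM5 and −0.14 to 0.18 for CHRNB2. With the animal number as a replicate block, limma called 3 genes, no member was called, and CHRNB2 was at −0.11. The numbers 1 and 4 occur in both sexes, but deviations of same-numbered animals correlated at 0.00098 and 0.038, so they were taken as sharing only a number. The cause of these changes was not tested. With each animal left out, the share of CHRM1 stayed between 83.1% and 84.4%, the ratio of CHRNA4 to CHRNB2 between 3.01 and 3.18, and the ratio of the nicotinic to the muscarinic sum between 1.152 and 1.30. With coverage in place of TPM, an alternative added after seeing the data, the ratio of CHRNA4 to CHRNB2 was 5.34 and that of the sums 0.952. TPM carries no read counts, so no counting error could be given for CHRM2 and CHRM5, which had a coverage of at most 6.22 and 1.66.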

Other observations

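Gene-like copies of nicotinic subunits were weak. CHRNA10li1 was at 0.205 to 0.742 TPM in the 6 animals. CHRNA2li1, which lies within the CHRNA2 span on the same strand, was at 1.502 TPM in female 3, 0.940 TPM in male 1 and 0.392 TPM in male 4 and was listed at 0 in the other animals.

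Summed levels of the other marker lists were as follows. Neuron markers summed to 5282 to 7460 TPM, excitatory neuron markers to 1244 to 1951 TPM, and inhibitory neuron markers to 1083 to 1328 TPM. Astrocyte markers summed to 679 to 1107 TPM, microglia markers to 152 to 297 TPM, endothelial markers to 311 to 468 TPM, and choroid plexus markers to 1.49 to 10.3 TPM. Most of the endothelial sum was PECAM1 (252 to 410 TPM). Striatal markers summed to 385, 376 and 164 TPM in females 1, 3 and 4 and 560.5, 180.0 and 138 TPM in males 1, 4 and 5.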
